A study of Mus musculus with 60 samples.

Results

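Genes of glucose transport, glycolysis, the 2,3-bisphosphoglycerate shunt, pyruvate use and the pentose phosphate pathway were followed by RNA-seq in erythroblasts of mouse fetal liver that carry Gata1s. GATA1 is a DNA binding regulator that erythroid and megakaryocytic cells need to mature, and its short form Gata1s is without the N terminus. The 37 genes were chosen by name from these pathways, with earlier results of these data known, out of 23393 genes in the table. Of them, 34 reached a mean of at least 10 normalised counts over the 20 libraries and were tested, among 10720 genes tested in all, and Eno1, Eno2 and Ldhb were below that level.

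All libraries came from C57BL/6 fetal liver, wild type or Gata1s, at embryonic days E12.5 or E14.5. Cells had been sorted on CD71, the transferrin receptor, and Ter119, a surface protein of maturing erythroid cells. The R1/2 sort holds cells with high CD71 and absent to intermediate Ter119, and the R3 sort holds cells with high CD71 and high Ter119. At E12.5 there are 2 wild type and 4 Gata1s libraries of R1/2, and 3 and 2 of R3. At E14.5 there are 2 wild type and 3 Gata1s libraries of R1/2, and 2 of each genotype of R3. Nothing in the labels says whether replicates are separate embryos, so p-values cover only the spread between these samples.

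As background, glycolysis splits glucose into pyruvate and yields ATP and NADH, and lactate dehydrogenase returns the NADH to NAD. Mature red cells have no mitochondria and live on glycolysis, part of which they divert through 2,3-bisphosphoglycerate, which lowers the oxygen affinity of haemoglobin. The pentose phosphate pathway makes NADPH, which keeps glutathione reduced, and ribose for nucleotides. Many genes of glycolysis are known targets of hypoxia inducible factors.

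Libraries held 6.93 to 32.7 M reads, and a single read is worth 0.36 to 4.72 normalised counts, which makes values near 10 imprecise. Transcripts of the 37 genes together made up 1.03 to 1.24% of the signal in wild type R1/2 libraries, 1.44 to 1.90% in Gata1s E12.5 R1/2 and 1.29 to 1.36% in Gata1s E14.5 R1/2. In R3 they made up 0.99 to 1.10% in wild type, 1.08 to 1.14% in Gata1s E12.5 and 1.24 to 1.30% in Gata1s E14.5. Library names begin with JC in 8 libraries and MS in 12, and every Gata1s R3 library is MS, as is 1 wild type R3 library of each day. With the prefix held as a term in the fit, 1 of the 34 genes was called higher in MS (Slc16a1) and 4 were called lower (Slc16a3, Gpi1, Aldoa and Pgls). Of all 10720 genes tested, 992 were called higher in MS and 570 lower.

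Marker lists were counted by genotype too. Among all genes tested, 14.2% were called higher and 21.7% lower in E12.5 R3, and 16.8% and 20.7% in E14.5 R3. All 10 erythroblast markers were called lower in Gata1s E12.5 R3. Their summed level there was 384767 to 387894 normalised counts against 683426 to 995440 in wild type. In E14.5 R3, 2 of the 10 were called lower, near the share of all genes. The sums there overlapped, at 1394900 to 1412180 against 1313200 to 1917140. The list of 11 megakaryocyte markers summed to 3052 to 3298 against 865 to 1382 in E12.5 R3 and to 3798 to 4976 against 954 to 1100 in E14.5 R3, so it stayed a small part of the signal, and no marker of that list was at 0 in all libraries of those groups. The sums in R1/2 were 1050 to 1970 against 434 to 491 at E12.5 and 886 to 1053 against 306 to 311 at E14.5, where Gp1bb and Gp6 were at 0 in both wild type libraries. Neutrophil and monocyte markers summed to 1552 to 3620 in Gata1s and 269 to 1279 in wild type at E12.5 R1/2, and to 4952 to 5387 against 811 to 20911 at E14.5 R1/2. Hepatoblast markers summed to 234 to 1069 against 119 to 383 in E12.5 R1/2, to 1067 to 1968 against 818 to 2012 in E12.5 R3 (4 of 7 tested markers called higher) and to 88.9 to 192 against 340 to 3830 in E14.5 R3 (4 of 7 called lower). Macrophage markers summed to 148 to 170 against 390 to 538 in E14.5 R3, where 2 of 6 were called lower and Cd163 and Timd4 were at 0 in both Gata1s libraries. Their part in the results below was not tested, and in sorted populations fewer cells of a type and less RNA per cell cannot be told apart.

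Averaged over both days and sorts, 19 of the 34 genes were higher in Gata1s and 8 were lower, at a limma adjusted p under 0.05. Among all genes tested 19.7% were called higher and 25.6% lower. Enzymes of the trunk of glycolysis made up most of the increases, while the glucose transporter Slc2a1, the lactate transporter Slc16a1, Bpgm and enzymes of the non-oxidative pentose phosphate pathway were among the decreases. The median log2 difference of the 34 genes was 0.35, against -0.03 for all genes. By combination, 12 genes were higher and 1 lower in E12.5 R1/2, where 4.95% of all genes were called higher and 4.6% lower, and the medians were 0.20 and -0.02. In E12.5 R3, 16 were higher and 8 lower, against 14.2% and 21.7% of all genes, with medians of 0.32 and -0.00. In E14.5 R1/2, 8 were higher and 2 lower, against 5% and 5.13%, with medians of 0.14 and -0.01. In E14.5 R3, 17 were higher and 5 lower, against 16.8% and 20.7%, with medians of 0.52 and -0.05. edgeR called 17 higher and 4 lower there, and 14.3% and 15.3% of all genes.

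Those counts rest unevenly on single libraries. Of the 13 calls in E12.5 R1/2, 8 were lost without replicate 1 of the wild type, namely Gpi1, Aldoa, Tpi1, Gapdh, Pgk1, Pgam1, Pkm and Pgm2 (limma adjusted p 0.077 to 0.52). Of the 10 in E14.5 R1/2, 7 were lost without replicate 2 of the wild type, and Slc16a3, Pfkm and Pfkp stood without each library in turn (adjusted p of the others 0.063 to 0.56). In E12.5 R3, 18 of 24 calls stood without each library, and Slc16a3, Pfkfb3, Pfkfb4, Pgam1, Pgm1 and Pgd did not. In E14.5 R3, 18 of 22 stood, and Pfkfb3, Pgam1, Ldha and G6pdx did not. With the E14.5 R3 libraries fitted by themselves, 8 of those 22 calls were made, for Slc2a3, Slc16a1, Slc16a3, Gpi1, Pfkm, Aldoa, Pkm and Ldha. In the mean, 26 of 27 calls stood without each library, and Pfkfb4 did not.

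**Figure D1:**
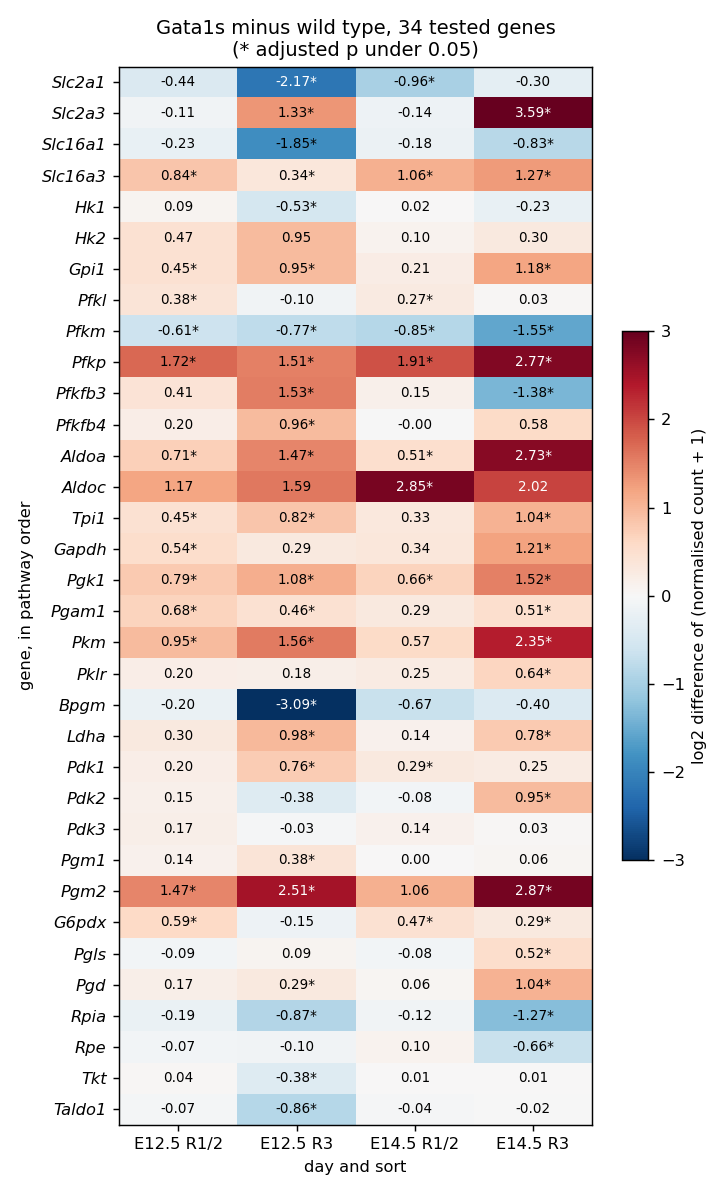
Log2 difference of normalised count plus 1, Gata1s minus wild type, for the 34 tested genes (rows, in pathway order) in the 4 combinations of day and sort (columns), with an asterisk at adjusted p under 0.05. Pfkp and Pfkm carry an asterisk in every column, with opposite signs, while Slc2a3 carries one in the R3 columns only.

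Promoters of the 4 genes with the smallest adjusted p in that mean and an entry among RefSeq promoters are shown, since these genes differed between genotypes in R3 on both days. They are the aldolase gene Aldoa, the phosphofructokinase genes Pfkp and Pfkm, and the lactate transporter gene Slc16a1. Each window runs from 250 bases before the annotated start to 50 after it on GRCm38.p6. The windows are chr7:126800398-126800697 (minus strand) for Aldoa, chr13:6648722-6649021 (minus strand) for Pfkp, chr3:104638414-104638713 (plus strand) for Slc16a1 and chr15:98092339-98092638 (plus strand) for Pfkm. Capitals mark ACGTG or GCGTG on either strand, the core letters of the hypoxia response element.
Aldoa: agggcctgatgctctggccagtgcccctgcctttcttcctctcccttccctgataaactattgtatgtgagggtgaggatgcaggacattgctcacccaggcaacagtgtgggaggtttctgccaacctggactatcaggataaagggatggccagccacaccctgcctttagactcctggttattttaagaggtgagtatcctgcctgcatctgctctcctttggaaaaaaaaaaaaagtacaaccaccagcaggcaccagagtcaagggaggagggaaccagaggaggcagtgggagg
Pfkp: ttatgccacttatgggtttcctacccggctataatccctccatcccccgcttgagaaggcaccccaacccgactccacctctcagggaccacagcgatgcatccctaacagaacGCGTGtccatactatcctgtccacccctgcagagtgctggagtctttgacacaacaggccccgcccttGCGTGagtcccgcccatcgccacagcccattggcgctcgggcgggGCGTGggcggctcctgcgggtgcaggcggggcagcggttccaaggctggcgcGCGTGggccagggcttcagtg
Slc16a1: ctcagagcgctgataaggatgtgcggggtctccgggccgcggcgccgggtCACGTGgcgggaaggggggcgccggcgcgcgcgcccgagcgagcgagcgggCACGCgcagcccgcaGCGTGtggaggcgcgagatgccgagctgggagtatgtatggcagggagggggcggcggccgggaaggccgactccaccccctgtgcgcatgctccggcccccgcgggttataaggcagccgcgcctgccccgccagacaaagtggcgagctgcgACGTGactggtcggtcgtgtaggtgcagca
Pfkm: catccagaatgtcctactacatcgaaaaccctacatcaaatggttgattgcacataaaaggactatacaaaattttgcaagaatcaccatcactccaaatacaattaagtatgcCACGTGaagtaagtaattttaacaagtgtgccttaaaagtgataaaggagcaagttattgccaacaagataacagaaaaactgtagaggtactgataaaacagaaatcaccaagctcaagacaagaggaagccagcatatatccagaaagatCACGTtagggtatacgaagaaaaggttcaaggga
The printed Aldoa window holds no such core, the Pfkp window 4, the Slc16a1 window 5 and the Pfkm window 3, counting both strands, so that CACGTG, an E-box, counts as a pair of matches. Aldoa has 3 annotated windows, of which the other two overlap and hold 1 core each, and Pfkm has 4, with 0 to 3 cores, and the start used in these cells is not given by the table. Of the 52 windows of the 36 genes that have one, 73.1% hold at least 1 core, against 43.8% of all 32851 windows. The median GC content was 60.5% in the former and 52.7% in all windows, and the core letters are rich in G and C. AGATAA or TGATAA, letters bound by GATA factors, were in 15.4% of the windows of these genes and 18.6% of all, the E-box CACGTG in 9.62% and 7.15%, and CACCC, which Krüppel-like factors bind, in 63.5% and 57.5%.

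The transporters moved in opposite directions. Slc2a1 encodes GLUT1, the glucose carrier of erythroid cells, and had 36024, 51378 and 62825 normalised counts in the wild type E12.5 R3 libraries and 12074 and 13174 in the Gata1s libraries, which do not overlap. The log2 difference was -2.17 ± 0.27 (SE, adjusted p = 1.9e-05). At E14.5 R3 it had 94822 and 106448 in wild type and 87113 and 96472 in Gata1s, which overlap, and the difference of -0.30 ± 0.29 did not pass the test (adjusted p = 0.45). In E14.5 R1/2 it was called lower by -0.96 ± 0.26 (adjusted p = 0.025). Replicate 2 of the wild type had 3977 against 1753 in replicate 1, and its erythroblast markers summed to 96299 against 54863. The call was lost without that library, without replicate 1 or 3 of Gata1s, and without the prefix term.

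Slc2a3 encodes GLUT3, a glucose carrier of neurons and platelets. Its R3 libraries had 842, 1068 and 1346 normalised counts in wild type and 2870 and 2635 in Gata1s at E12.5, a log2 difference of 1.33 ± 0.14 (adjusted p = 3.4e-06). At E14.5 R3 they had 657 and 586 in wild type and 7305 and 7872 in Gata1s, a log2 difference of 3.59 ± 0.15 (adjusted p = 7e-11). In neither case did the groups overlap. In R1/2 the 11 libraries of both genotypes and days lay between 860 and 1028, and no difference was called.

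Slc16a1 and Slc16a3 encode the lactate carriers MCT1 and MCT4. Slc16a1 had 11722, 13889 and 13846 normalised counts in wild type and 3943 and 4165 in Gata1s at E12.5 R3, a fall of the log2 level of -1.85 ± 0.09 (adjusted p = 2e-09). At E14.5 R3 it had 25038 and 34308 against 18047 and 17667 (-0.83 ± 0.10, adjusted p = 7.2e-06). The Gata1s libraries lay below every wild type library on both days. Slc16a3 was higher in all 4 combinations, by 0.84 ± 0.11 and 0.34 ± 0.13 in R1/2 and R3 at E12.5 and by 1.06 ± 0.12 and 1.27 ± 0.13 at E14.5 (adjusted p 2.4e-06 to 0.046). The E12.5 R3 value is the smallest and its libraries overlap, with 2107, 2088 and 1441 in wild type and 1919 and 1970 in Gata1s. It did not pass without the prefix term.

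**Figure D2:**
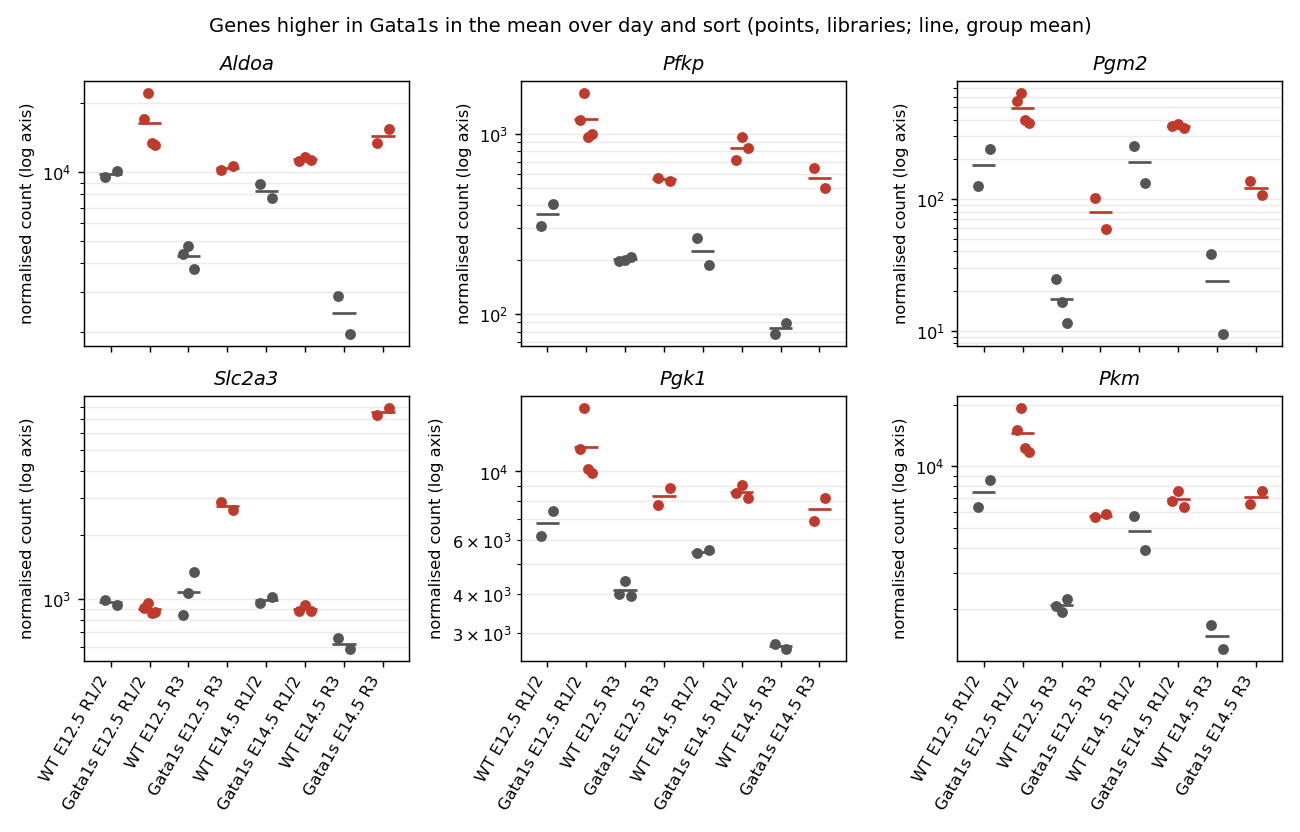
Normalised counts (log axis) of 6 genes higher in Gata1s in the mean over days and sorts, with a point for each library and a line at the group mean. In the R3 groups every Gata1s library of these genes lies above every wild type library of its day.

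In upper glycolysis, which turns glucose into triose phosphates, 7 of 11 tested genes rose in the mean, 2 fell and 2 were not called. Among all genes tested, 19.7% were called higher in that mean and 25.6% lower. The phosphofructokinase subunits, which set the pace of glycolysis, did not move alike. Pfkp, the platelet type, had 307 and 408 normalised counts in wild type and 1184, 1675, 960 and 988 in Gata1s at E12.5 R1/2, and 196, 200 and 206 against 567 and 549 at E12.5 R3. At E14.5 it had 263 and 187 against 714, 957 and 834 in R1/2, and 77.7 and 89.7 against 642 and 498 in R3. Gata1s libraries were above wild type without overlap in every combination. Log2 differences were 1.72 ± 0.20, 1.51 ± 0.23, 1.91 ± 0.21 and 2.77 ± 0.24, with adjusted p of 4.8e-05, 9.8e-05, 2.6e-05 and 3.2e-07, and the mean was 3.94-fold.

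Pfkm, the muscle type, fell in every combination. Its R3 libraries had 1752, 1587 and 1343 normalised counts in wild type and 925 and 816 in Gata1s at E12.5, and 1653 and 1232 against 472 and 466 at E14.5. The groups did not overlap in any combination, and log2 differences were -0.61 ± 0.11 and -0.77 ± 0.12 in R1/2 and R3 at E12.5 and -0.85 ± 0.11 and -1.55 ± 0.13 at E14.5 (adjusted p 1.8e-07 to 0.0015). Pfkl, the liver type, was higher in R1/2, by 0.38 ± 0.08 at E12.5 (adjusted p = 0.0039) and 0.27 ± 0.08 at E14.5 (adjusted p = 0.041), and was not called in R3 (-0.10 ± 0.09 and 0.03 ± 0.09). Under quantile normalisation the E12.5 R3 value became 0.25.

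Pfkfb3 and Pfkfb4 make or remove fructose 2,6-bisphosphate, the activator of phosphofructokinase. Pfkfb3 was called higher at E12.5 R3 (1.53 ± 0.48, adjusted p = 0.022) and lower at E14.5 R3 (-1.38 ± 0.51, adjusted p = 0.044), but it had 3.69 and 5.39 normalised counts in the Gata1s E14.5 R3 libraries, from 3 reads in all, and edgeR did not call it there. Pfkfb4 was called at E12.5 R3 (0.96 ± 0.29, adjusted p = 0.016), with 54.5, 67.1 and 40.8 normalised counts in wild type and 105 and 79.6 in Gata1s, and in no other combination.

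Aldoa encodes aldolase A, the form of red cells and muscle. It had 4378, 4741 and 3770 normalised counts in wild type and 10206 and 10697 in Gata1s at E12.5 R3 (1.47 ± 0.15, adjusted p = 3.8e-06), and 2887 and 1964 against 13408 and 15404 at E14.5 R3 (2.73 ± 0.16, adjusted p = 6.4e-09). That is 6.63-fold at E14.5, with a wide gap between the groups. In R1/2 it was higher by 0.71 ± 0.14 at E12.5 and 0.51 ± 0.15 at E14.5 (adjusted p = 0.0033 and 0.037). The first of these calls was lost without replicate 1 of the wild type, and the second without either wild type library or without replicate 2 or 3 of Gata1s. Aldoc had at most 40.6 normalised counts, and its mean difference of 1.91 ± 0.39 (adjusted p = 0.00083) rests on 5 to 88 reads a group.

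Gpi1, glucose phosphate isomerase, rose at E12.5 in both sorts (0.45 ± 0.12 in R1/2 and 0.95 ± 0.14 in R3) and at E14.5 in R3 (1.18 ± 0.15), with adjusted p of 0.032, 7.6e-05 and 1.5e-05. Tpi1, triose phosphate isomerase, rose by 0.45 ± 0.10, 0.82 ± 0.11 and 1.04 ± 0.12 in the same 3 combinations (adjusted p 6.2e-06 to 0.0088). The E12.5 R1/2 call of Gpi1 was lost without the prefix term, without the filter, with only the compared groups fitted and without replicate 2 of Gata1s. With replicate number added to the fit, the E12.5 R1/2 calls of both Gpi1 and Tpi1 were lost. The hexokinases did not follow Gpi1 and Tpi1. Hk1, the red cell form, was lower at E12.5 R3 (-0.53 ± 0.10, adjusted p = 0.00066), a call lost under quantile normalisation. Hk2 was not called by the main limma fit in any genotype comparison, with a mean difference of 0.45 ± 0.19 (adjusted p = 0.058). Under upper-quartile scaling it was called higher in the mean and at E12.5 R3. At E12.5 R3 it had 44.9, 26.8 and 29.5 normalised counts in wild type and 64.4 and 49.4 in Gata1s, which do not overlap (0.95 ± 0.37, limma adjusted p = 0.057), and DESeq2 called it there (adjusted p = 0.046).

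In lower glycolysis, which harvests ATP and NADH, all 5 tested genes rose in the mean, where 19.7% of all genes were called higher. Pgk1, phosphoglycerate kinase, makes ATP and was higher in every combination. It had 3998, 4406 and 3958 normalised counts in wild type and 7816 and 8856 in Gata1s at E12.5 R3, and 2763 and 2658 against 6900 and 8192 at E14.5 R3. No Gata1s library overlapped wild type, and log2 differences were 0.79 ± 0.14 and 1.08 ± 0.16 in R1/2 and R3 at E12.5 and 0.66 ± 0.15 and 1.52 ± 0.17 at E14.5 (adjusted p 3.9e-06 to 0.009).

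Gapdh, the dehydrogenase ahead of Pgk1 in the pathway, had 19829 and 19751 normalised counts in wild type and 40036 and 48232 in Gata1s at E14.5 R3 (1.21 ± 0.14, adjusted p = 8.2e-06). At E12.5 R3 it had 18486, 20070 and 19145 against 19008 and 26013, which overlap (0.29 ± 0.14, adjusted p = 0.10). The gene is a common reference for expression, and here its level differed between genotypes at E12.5 R1/2 too (0.54 ± 0.12, adjusted p = 0.0093). Pgam1, phosphoglycerate mutase, rose by 0.68 ± 0.12 and 0.46 ± 0.14 in R1/2 and R3 of E12.5 and by 0.51 ± 0.15 in R3 of E14.5. Its R3 calls on both days were lost without the prefix term, and that at E12.5 also with replicate number added to the fit.

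Pkm, pyruvate kinase of most tissues and early erythroid cells, had 2067, 1948 and 2254 normalised counts in wild type and 5621 and 5828 in Gata1s at E12.5 R3 (1.56 ± 0.20, adjusted p = 2.2e-05). At E14.5 R3 it had 1677 and 1280 against 6557 and 7581, a 5.08-fold difference (2.35 ± 0.21, adjusted p = 4.6e-07). Gata1s libraries lay far above wild type on both days. Pklr, the pyruvate kinase of red cells and liver, was called at E14.5 R3 (0.64 ± 0.14, adjusted p = 0.0023), where 19171 and 22679 normalised counts in wild type stood against 34734 and 32594 in Gata1s. It was not called at E12.5 R3 (0.18 ± 0.13).

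Reads of enolase could not be assigned. Eno1 had 0 to 25.3 normalised counts in the 20 libraries, while Gm5506, a near-identical copy that RefSeq names Eno1b, had 59 to 8015. Within 1 group Gm5506 ranged from 204 to 8015, in Gata1s E12.5 R1/2, so neither entry is read as enolase. Reads of other members with copies could be split too, but the copies Aldoart1, Aldoart2, Pgk2 and G6pd2 were at 0 in all 20 libraries. Of the others, Pgam2 had 5.09 to 42.5 normalised counts, Gapdhs 0 to 33.5 and Ldhal6b 0 to 4.72.

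Bpgm, which makes 2,3-bisphosphoglycerate, had the largest decrease of the 34 genes in E12.5 R3. It had 11464, 16475 and 16248 normalised counts in wild type and 2105 and 1886 in Gata1s, with no overlap, so that wild type was 8.54-fold higher (-3.09 ± 0.31, adjusted p = 2.8e-06). At E14.5 R3 it had 47402 and 81441 in wild type and 54131 and 51912 in Gata1s, which overlap (-0.40 ± 0.33, adjusted p = 0.37). The wild type library with 47402 is JC, and that with 81441 is MS, as are both Gata1s libraries.

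**Figure D3:**
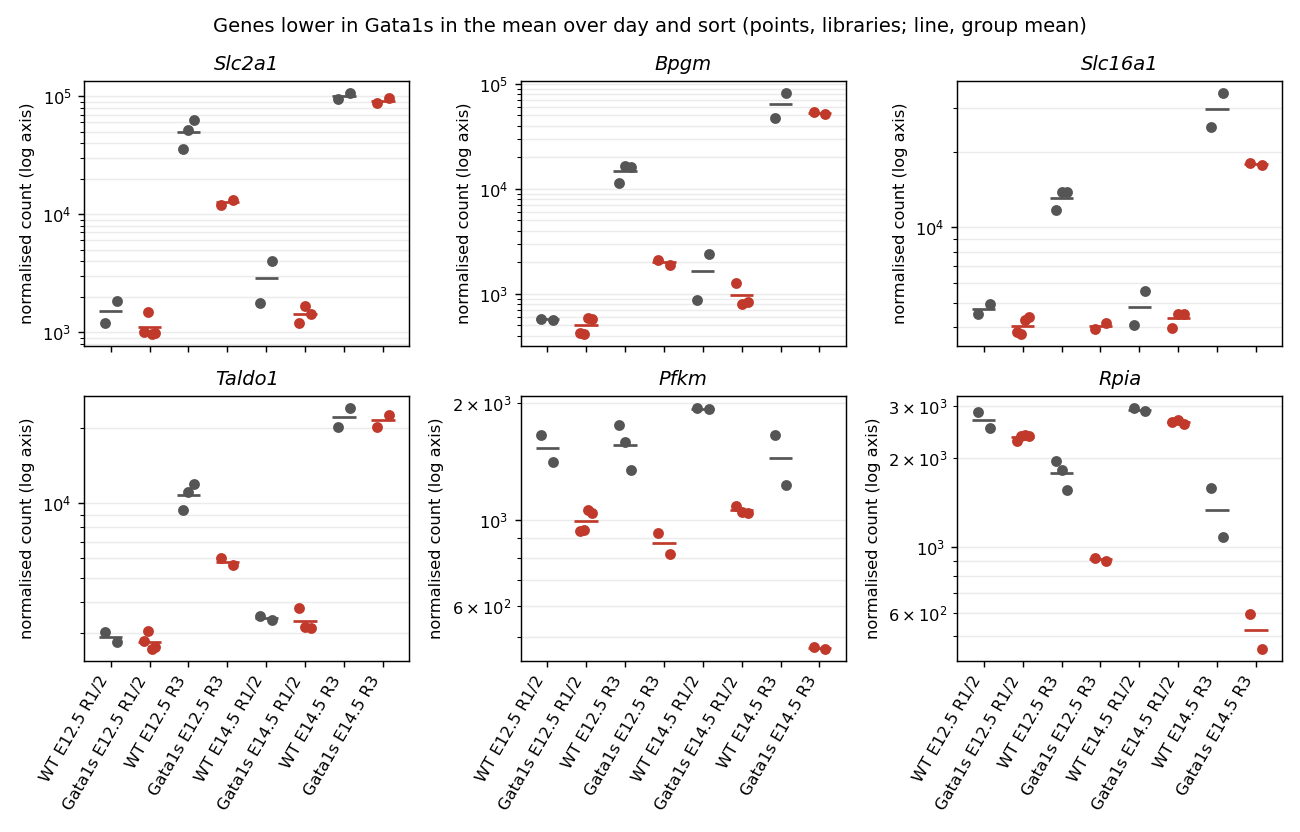
Normalised counts (log axis) of 6 genes lower in Gata1s in the mean over days and sorts, with a point for each library and a line at the group mean. At E12.5 R3 the Gata1s libraries of all 6 genes lie below the wild type libraries, and at E14.5 R3 those of Slc2a1, Bpgm and Taldo1 overlap with wild type.

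Of the genes of pyruvate use, Ldha, lactate dehydrogenase A, had 6298, 5705 and 4483 normalised counts in wild type and 9451 and 9452 in Gata1s at E12.5 R3 (0.98 ± 0.19, adjusted p = 0.00073). At E14.5 R3 it had 3571 and 1827 against 4005 and 3990 (0.78 ± 0.20, adjusted p = 0.0055). The wild type libraries there lie far apart, and the call is lost without replicate 2. Among the kinases that switch off pyruvate dehydrogenase, Pdk1 rose at E12.5 R3 (0.76 ± 0.09, adjusted p = 1.5e-05) and Pdk2 at E14.5 R3 (0.95 ± 0.17, adjusted p = 0.00037). Pdk3 was not called by the main limma fit in any genotype comparison, but was called in the mean under upper-quartile scaling and quantile normalisation. Pdk2 had 453 and 453 normalised counts in wild type and 723 and 940 in Gata1s at E14.5 R3, and 493, 468 and 390 against 334 and 299 at E12.5 R3, where the difference of -0.38 ± 0.16 did not pass in limma (adjusted p = 0.072) and passed in DESeq2 (adjusted p = 0.048).

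The entries Pgm1 and Pgm2 are phosphoglucomutases, which link glycolysis to glycogen, and RefSeq gives each symbol as an older name of the other, so the genes are named here as the table labels them. Pgm2 had 24.8, 16.4 and 11.3 normalised counts in wild type and 101 and 59.0 in Gata1s at E12.5 R3 (2.51 ± 0.43, adjusted p = 0.00031), and 38.0 and 9.44 against 136 and 108 at E14.5 R3 (2.87 ± 0.46, adjusted p = 0.00014). Groups did not overlap in R3, but the wild type values rest on 47 and 25 reads. At E12.5 R1/2, where reads were many, it had 126 and 240 against 553, 640, 402 and 381 (1.47 ± 0.38, adjusted p = 0.023). That call was lost without the prefix term, with replicate number added to the fit, and without replicate 2 of Gata1s. Pgm1 was called at E12.5 R3 (0.38 ± 0.13, adjusted p = 0.032).

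In the pentose phosphate pathway, 2 of 7 tested genes rose in the mean, 3 fell, and Pgls and Tkt were not called. Among all genes tested, 19.7% were called higher in that mean and 25.6% lower. The rises were in the oxidative branch, which makes NADPH. G6pdx, glucose 6-phosphate dehydrogenase, was higher in E12.5 R1/2, with 1318 and 1327 normalised counts in wild type and 1971, 2084, 1947 and 1972 in Gata1s (0.59 ± 0.09, adjusted p = 0.00037). It was higher in E14.5 R1/2 (0.47 ± 0.09, adjusted p = 0.0041) and in E14.5 R3 (0.29 ± 0.10, adjusted p = 0.040). The E14.5 R3 call was lost without the filter, with replicate number added to the fit, and with only the compared groups fitted. At E12.5 R3 G6pdx had 2217, 2653 and 3047 in wild type and 2355 and 2407 in Gata1s, which overlap. It was not called there in the main fit, and was called lower with only the compared groups fitted. Pgd, the second dehydrogenase, had 1027 and 812 in wild type and 1652 and 1934 in Gata1s at E14.5 R3 (1.04 ± 0.10, adjusted p = 1.6e-06). Pgls, the lactonase between them, was called at E14.5 R3 only among the 4 combinations (0.52 ± 0.12, adjusted p = 0.0031), and not without the prefix term.

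The falls were in the non-oxidative branch, which interconverts sugars. Rpia, ribose 5-phosphate isomerase, had 1956, 1830 and 1559 normalised counts in wild type and 919 and 901 in Gata1s at E12.5 R3, and 1588 and 1086 against 594 and 453 at E14.5 R3. The groups did not overlap, with log2 differences of -0.87 ± 0.13 and -1.27 ± 0.14 (adjusted p = 7.7e-05 and 2.8e-06). Taldo1, transaldolase, had 9366, 11099 and 11950 against 6005 and 5649 at E12.5 R3 (-0.86 ± 0.12, adjusted p = 4.8e-05), and at E14.5 R3 the groups overlapped at 20269 to 24086 (-0.02 ± 0.13). Rpe, the epimerase, fell at E14.5 R3 (-0.66 ± 0.10, adjusted p = 7.4e-05). Its call in the mean was lost under quantile normalisation, under upper-quartile scaling and with MS libraries only. Tkt, transketolase, was called lower at E12.5 R3 (-0.38 ± 0.09, adjusted p = 0.0031), and under quantile normalisation that value became 0.06.

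Next, R3 was set against R1/2 within each genotype, to describe how these genes change with Ter119. In wild type E12.5, 11 of 34 genes were higher and 17 lower in R3, against 35.9% and 39.1% of all genes, with medians of -0.40 for these genes and -0.08 for all. In wild type E14.5 the counts were 12 and 19, against 37.7% and 41.6%, with medians of -0.56 and -0.11. Slc2a1 rose by 5.11 ± 0.26 and 5.25 ± 0.28 at E12.5 and E14.5 (adjusted p = 5.5e-11 and 6.8e-11), and Bpgm by 4.72 ± 0.29 and 5.42 ± 0.32 (adjusted p = 6.2e-10 and 2.2e-10). Taldo1 rose by 1.88 ± 0.11 and 2.68 ± 0.12, Slc16a1 by 1.51 ± 0.09 and 2.62 ± 0.09, Pdk2 by 1.82 ± 0.15 and 1.57 ± 0.16, and G6pdx by 0.99 ± 0.09 and 1.27 ± 0.10.

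Marker lists moved with the sort as well. In wild type at both days all 10 erythroblast markers and all 6 tested macrophage markers were called higher in R3. Of 9 tested megakaryocyte markers, 5 were called higher and 2 lower on each day. Of 7 tested hepatoblast markers, 4 were called higher at E12.5 and 5 at E14.5, and 0 lower. The shares of all genes called higher and lower were 35.9% and 39.1% at E12.5, and 37.7% and 41.6% at E14.5. The part of these lists in the sort differences was not tested.

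The decreases were led by Hk2, the inducible hexokinase, with 548 and 739 normalised counts in wild type E12.5 R1/2 and 44.9, 26.8 and 29.5 in R3 (-4.28 ± 0.35, adjusted p = 1.4e-08). Pfkfb3 fell by 4.01 on the log2 scale at E12.5, Pgm2 by 3.39, Pgm1 by 2.39, Pkm by 1.85, Ldha by 1.84, Gpi1 by 1.53, Pgam1 by 1.36 and Aldoa by 1.24. At E14.5 the same genes had differences of -2.90, -3.19, -2.70, -1.69, -2.73, -1.94, -1.12 and -1.80. The pair of pyruvate kinase genes went opposite ways, since Pklr rose by 1.56 ± 0.13 and 0.99 ± 0.14. The Pklr value at E14.5, and those of Hk1, Pfkl and Tkt at both or 1 of the days, turned sign under quantile normalisation or upper-quartile scaling.

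In Gata1s E12.5, 8 genes were higher and 17 lower in R3, against 33.9% and 35.1% of all genes, and in Gata1s E14.5, 14 were higher and 15 lower, against 38.7% and 43%. The medians of the 34 genes were -0.27 and -0.04. At E12.5 Slc16a1 had 3829, 3762, 4257 and 4382 normalised counts in Gata1s R1/2 and 3943 and 4165 in R3, which overlap, a difference of -0.12 ± 0.09 where wild type had 1.51 ± 0.09. Bpgm rose by 1.83 ± 0.29 in Gata1s E12.5 and by 5.70 ± 0.30 in Gata1s E14.5. Aldoa had a difference of -0.48 ± 0.14 in Gata1s E12.5 and 0.43 ± 0.15 in Gata1s E14.5, and Pkm had -1.24 ± 0.18 and 0.09 ± 0.19. The Aldoa value at E14.5 became -0.86 under quantile normalisation. Slc2a3 rose in R3 by 1.58 ± 0.13 and 3.05 ± 0.13 in Gata1s, where wild type had 0.14 ± 0.13 and -0.68 ± 0.14.

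**Figure D4:**
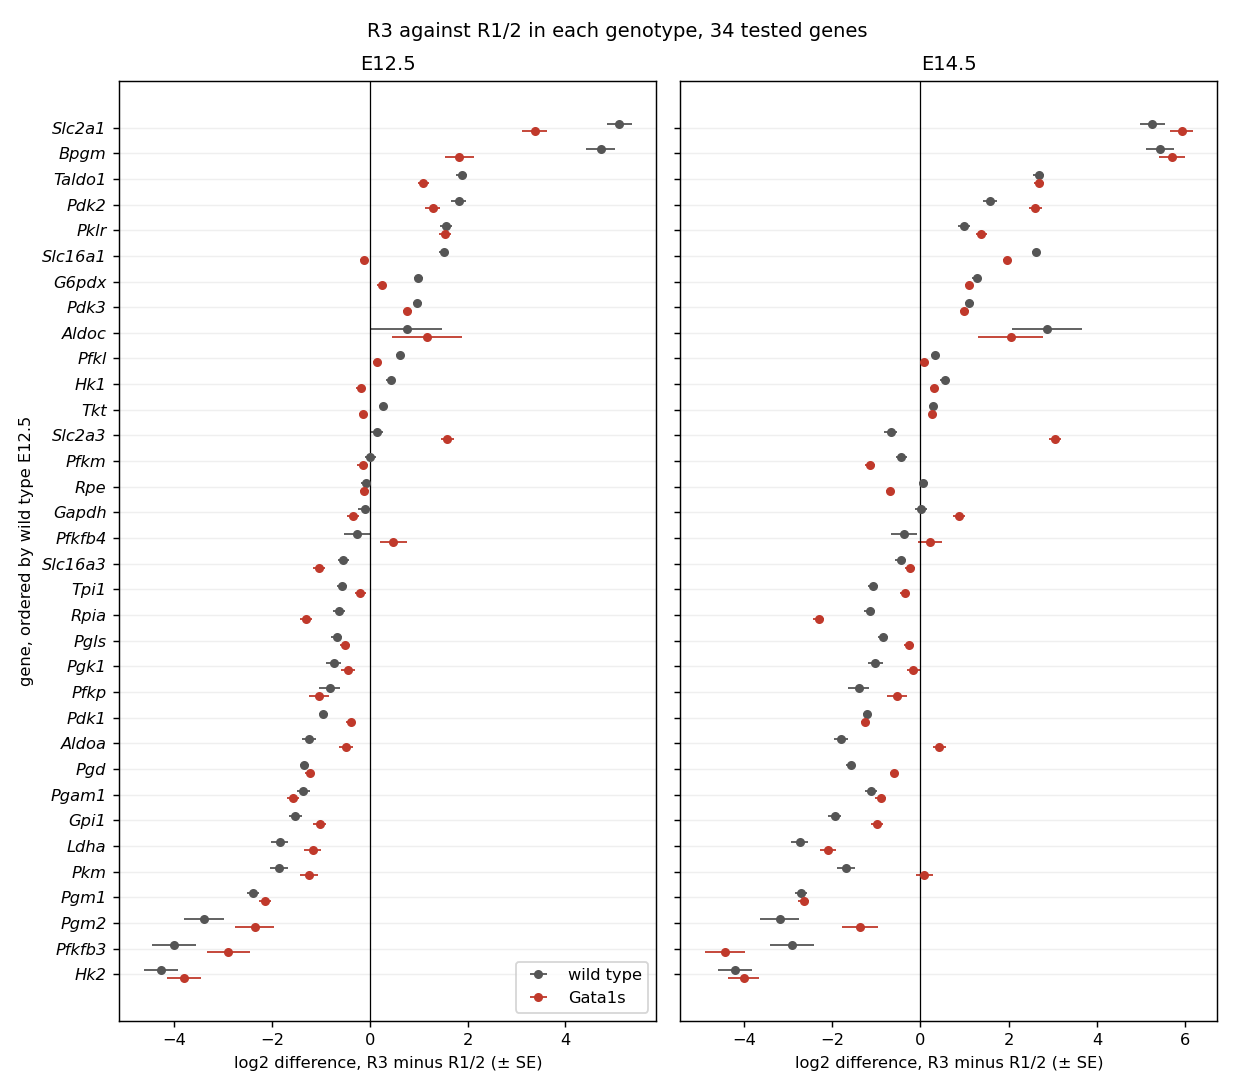
Log2 difference R3 minus R1/2 (points, bars ± SE) in wild type and Gata1s at E12.5 (left) and E14.5 (right), for the 34 tested genes ordered by the wild type E12.5 value. Slc2a1 and Bpgm stand at the upper end and Hk2 and Pfkfb3 at the lower end, and the genotypes lie apart for Bpgm and Slc16a1 at E12.5 and for Slc2a3 on both days.

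The test of the difference itself, the genotype effect in R3 minus that in R1/2 averaged over days, called 10 genes higher and 9 lower, against 8.81% and 12.9% of all genes. The medians were 0.17 and -0.03. The genotype difference was more positive in R3 for Slc2a3 (2.59 ± 0.14, adjusted p = 7.6e-09), Aldoa (1.49 ± 0.15, adjusted p = 7.5e-06), Pgm2 (1.42 ± 0.43, adjusted p = 0.025) and Pkm (1.20 ± 0.20, adjusted p = 0.00051). It was more negative for Bpgm (-1.31 ± 0.31, adjusted p = 0.0067), Slc16a1 (-1.14 ± 0.09, adjusted p = 5.6e-07) and Rpia (-0.92 ± 0.13, adjusted p = 0.00012). Pfkp had 0.32 ± 0.22 (adjusted p = 0.33). The Bpgm value averages unlike days, since R3 minus R1/2 was 1.83 ± 0.29 in Gata1s and 4.72 ± 0.29 in wild type at E12.5, and 5.70 ± 0.30 and 5.42 ± 0.32 at E14.5. edgeR did not call Pgm2 and Taldo1, and limma did not call Pfkm, Ldha, Pgm2, Pgls or Taldo1 once 1 or another library was left out.

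Between days, R1/2 showed few differences. In wild type R1/2 limma called 0 of the 34 genes, against 0.784% of all genes higher and 0.252% lower at E14.5. Of the 34, 7 had an unadjusted limma p under 0.05, as did 1158 of all 10720 genes tested. edgeR called 2 of the 34 and 221 of all genes, and DESeq2 called 4 and 468. In Gata1s R1/2 limma called 1 gene, Pkm, lower at E14.5 (-1.03 ± 0.16, adjusted p = 0.0030), against 1.08% of all genes higher and 0.243% lower. Pkm had 15020, 19214, 12259 and 11801 normalised counts in Gata1s E12.5 R1/2 and 6730, 7590 and 6358 in E14.5 R1/2, and wild type had 6355 and 8606 and then 5734 and 3902. The call was lost without replicate 1 of Gata1s E14.5 R1/2.

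In R3, E14.5 differed from E12.5 for 18 genes in wild type and 23 in Gata1s. In wild type 6 were higher and 12 lower, against 21.1% and 19.5% of all genes, and in Gata1s 14 were higher and 9 lower, against 29.5% and 30.5%. Bpgm rose with day by 2.04 ± 0.29 in wild type and 4.73 ± 0.32 in Gata1s, Taldo1 by 1.05 ± 0.11 and 1.88 ± 0.12, Slc16a1 by 1.12 ± 0.09 and 2.14 ± 0.09, and Slc2a1 by 0.99 ± 0.26 and 2.86 ± 0.28. The Slc2a1 call in wild type was lost under quantile normalisation (0.21, adjusted p = 0.59). Ldha fell with day by 1.05 on the log2 scale in wild type and by 1.24 in Gata1s. Aldoa had -0.80 ± 0.15 and 0.46 ± 0.16, the latter -0.39 under quantile normalisation, and Slc2a3 had -0.79 ± 0.13 and 1.46 ± 0.14.

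The genotype difference in R3 changed between days for 17 of the 34 genes, in either direction, against 23% of all genes. The medians were 0.41 for the 34 genes and -0.01 for all. edgeR called 15, against 19.4% of all genes. Bpgm had 2.69 ± 0.44 (adjusted p = 0.00063), Slc2a1 1.88 ± 0.38 (adjusted p = 0.0029), Slc16a1 1.02 ± 0.13 (adjusted p = 0.00013) and Taldo1 0.84 ± 0.17 (adjusted p = 0.0026), genes whose deficit at E12.5 was smaller or not called at E14.5. Slc2a3 (2.25 ± 0.19, adjusted p = 6.6e-06), Pfkp (1.27 ± 0.32, adjusted p = 0.010), Aldoa (1.26 ± 0.22, adjusted p = 0.00089), Gapdh (0.92 ± 0.19, adjusted p = 0.0031) and Pgd (0.75 ± 0.14, adjusted p = 0.0015) had an excess that was larger at E14.5. The calls of Pfkp, Aldoa and Gapdh were lost under quantile normalisation, and that of Pfkp also without replicate 1 of wild type E14.5 R3. Pfkm (-0.79 ± 0.17, adjusted p = 0.0042) and Rpe (-0.56 ± 0.13, adjusted p = 0.0063) had a larger deficit at E14.5. By genotype alone, 10 of 10 erythroblast markers were called lower at E12.5 R3 and 2 of 10 at E14.5 R3. In the test of the change between days, 6 of these 10 were called higher and 0 lower (median 0.76). That test called 6 of 7 tested hepatoblast markers lower (median -3.55) and 2 of 6 macrophage markers (median -2.19). The part of these lists in the values was not tested.

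**Figure D5:**
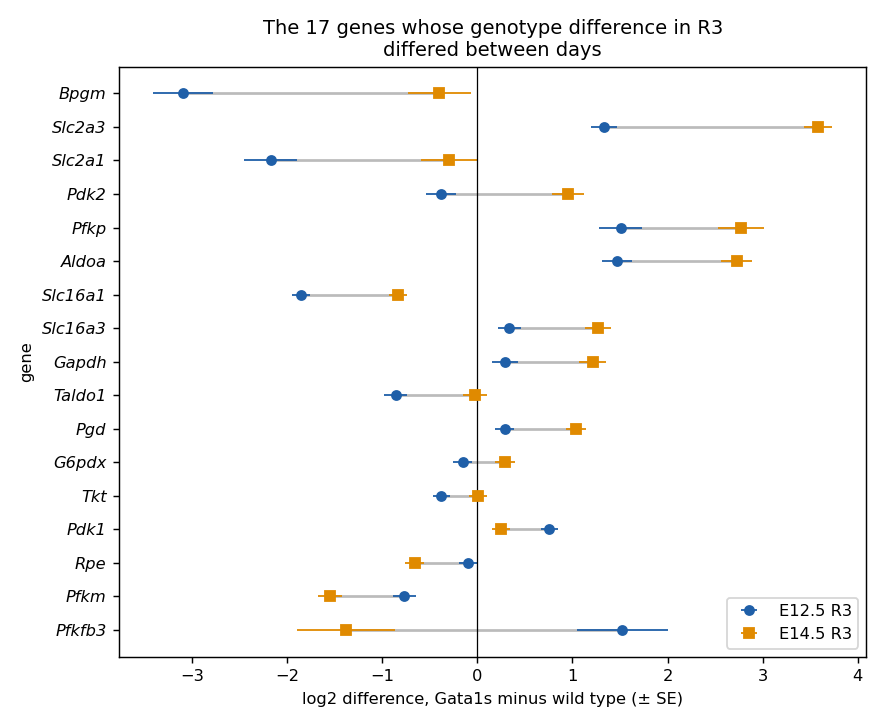
Log2 difference Gata1s minus wild type (bars ± SE) in R3 at E12.5 (circles) and E14.5 (squares) for the 17 genes whose genotype difference differed between days. Bpgm and Slc2a1 lie far below 0 at E12.5 and near it at E14.5, and Slc2a3, Pfkp and Aldoa are above 0 on both days and higher at E14.5.

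Neighbouring pathways were counted in the mean genotype difference, beside 19.7% of all genes called higher and 25.6% lower. These lists were chosen with earlier results of these data known, so the counts are not an independent test. Of 12 tested hypoxia responsive genes outside glycolysis, 10 were higher and 0 lower, among them Bnip3, a mitophagy receptor (1.55 ± 0.09, adjusted p = 1.1e-09), and Egln3, an oxygen sensing prolyl hydroxylase (4.87 ± 0.40, adjusted p = 8e-08). Of 15 genes of glycogen and galactose use, 10 were higher and 1 lower, among them Pygl, a glycogen phosphorylase (1.82 ± 0.15, adjusted p = 1e-07). Of 9 genes of pentose use and NADPH, 5 were higher and 1 lower, with Idh1, a cytosolic source of NADPH, at 1.22 ± 0.08 (adjusted p = 7.1e-09) and Gsr, glutathione reductase, at 0.49 ± 0.05 (adjusted p = 1.9e-06).

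Mitochondrial pyruvate and citrate genes differed by smaller amounts. Of 11 genes of pyruvate dehydrogenase and pyruvate import, 3 were higher and 1 lower, with Pdha1 at 0.18 ± 0.04 (adjusted p = 0.0011). Of 17 genes of the tricarboxylic acid cycle, 2 were higher and 4 lower, with Dlst at -0.31 ± 0.03 (adjusted p = 1.1e-06) and Sucla2 at 0.29 ± 0.05 (adjusted p = 0.00025). Their medians were -0.03 and -0.02. Of 15 tested genes for other isoforms of these steps, 3 were higher and 5 lower, with the glucose carriers Slc2a8 at -1.41 ± 0.13 (adjusted p = 3.4e-07) and Slc2a4 at -1.44 ± 0.19 (adjusted p = 1.2e-05).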

How the data were processed

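Sorted erythroblasts were sequenced with a directional protocol after poly-A selection, per the labels' protocols. The 20 RNA-seq libraries of a series of 60 samples were used, and the other 40, on chromatin, were not analysed here. The authors' deposited table holds normalised counts (signal) for each gene, per the file headers. The submitters' processing notes list TopHat2, HTSeq, DESeq2, Trim Galore and Bowtie2 with mm10 and mm9, whose part in the RNA data these sources do not state. The 37 genes and all lists were chosen with earlier results of these data known.

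Of 23420 entries, 27 named by a date (0.199 to 0.359% of a library) were left out, as was 1 column that matches no sample. With the smallest value above 0 in a library taken as 1 read, 100% of values were whole reads within a tolerance of 0.001. Recovered depth was 6.93 to 32.7 M reads. Each pair of replicates differed by more than counting error, with a chi-square per gene of at least 2.58.

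limma 3.58.1 (R 4.3.3), with empirical Bayes and a trend, was fitted to log2(normalised count + 1) of 10720 genes whose mean was at least 10. The model had 8 group means and a library prefix term, with 11 residual degrees of freedom, or 15.8 with the prior. P-values were adjusted after Benjamini and Hochberg over all genes within each of 15 comparisons and called under 0.05. The added 1 makes differences of genes with low counts smaller on this scale. A single read is worth up to 4.72 normalised counts, so a few reads can also make such differences large. The tried alternatives were a pseudocount of 0.5 or 5, dropping the filter or raising it to 50, scaling by upper quartile or by quantiles, dropping the prefix term, MS libraries alone, a replicate block, the compared groups alone, each library left out, library names that neighbour each other as correlated pairs (chosen after seeing the data), and whole-read tests with DESeq2 1.42.0 and edgeR 4.0.16. The fit was tested on simulated data, where many of its calls in E14.5 R3 were false, most of them for genes with low counts. For that reason edgeR's counts are given beside limma's there and for the change of the R3 genotype difference between days. Whether edgeR made fewer false calls was not tested. Other comparisons that use E14.5 R3 libraries, the mean among them, have limma's shares of all genes alone. The same caution holds for their calls.

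The text names all 37 genes and up to 2 tested genes of each other list by smallest adjusted p. A gene that falls under this rule is not reported here. Promoters are shown for 4 genes in that order (RefSeq, GRCm38.p6, matched by symbol for 36 of 37). Levels are not compared between genes, since lengths were not used.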

Additional observations from a re-analysis of the deposited data

Results flagged for a closer look

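The genotype difference differed between sorts for 19 genes (limma, interaction averaged over days). As log2 values, R3 minus R1/2, it was 2.59 for Slc2a3, 1.49 for Aldoa, 1.42 for Pgm2, 1.20 for Pkm, 0.73 for Gpi1, 0.66 for Ldha, 0.58 for Pgk1, 0.55 for Pgd, 0.54 for Tpi1 and 0.39 for Pgls. It was -1.31 for Bpgm, -1.14 for Slc16a1, -0.92 for Rpia, -0.46 for G6pdx, -0.43 for Hk1, -0.43 for Pfkm, -0.39 for Rpe, -0.39 for Taldo1 and -0.36 for Pfkl.

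Between days the genotype difference in R3 differed for 17 genes. As log2 values, E14.5 minus E12.5, it was 2.69 for Bpgm, 2.25 for Slc2a3, 1.88 for Slc2a1, 1.33 for Pdk2, 1.27 for Pfkp, 1.26 for Aldoa, 1.02 for Slc16a1, 0.93 for Slc16a3, 0.92 for Gapdh, 0.84 for Taldo1, 0.75 for Pgd, 0.44 for G6pdx and 0.38 for Tkt. It was -2.91 for Pfkfb3, -0.79 for Pfkm, -0.56 for Rpe and -0.51 for Pdk1. The Pfkfb3 call was lost with edgeR (adjusted p = 0.067) and with MS libraries only (adjusted p = 0.076), and its Gata1s E14.5 R3 level rests on 3 reads. The Bpgm call between sorts was lost with the replicate block (adjusted p = 0.12).

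In Gata1s E12.5 R1/2, the group of 4 libraries, 4 of 34 genes had a library far from the others. Replicate 2 was highest for Slc2a1, with 1478 normalised counts, and for Pdk3, with 850. Replicate 1 was highest for Aldoc, with 17.1, and replicate 3 was lowest for Pgm1, with 1446. Chance flags about 1 in 20 such groups.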

How the results depend on the processing

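Of 287 called results for single genes, 183 kept their call under every alternative and 224 without each library in turn. The number of genes called in E14.5 R1/2 by genotype went from 10 to 5 without the prefix term and 17 with MS libraries only, and that in E14.5 R3 from 22 to 8 with the compared groups only. For day in wild type R1/2 it went from 0 to 1 with a pseudocount of 5, 2 under quantile normalisation or edgeR, 4 with DESeq2 and 9 with MS libraries only. For day in Gata1s R1/2 it went from 1 to 2 with a pseudocount of 5, the filter at a mean of 50, upper-quartile scaling, the replicate block, neighbouring names as pairs or edgeR, 3 with MS libraries only, 5 under quantile normalisation, 6 with DESeq2 and 12 with the compared groups only. Without each library in turn, counts ranged from 0 to 2 in both day comparisons of R1/2, 6 to 14 in E12.5 R1/2 and 3 to 13 in E14.5 R1/2 by genotype.

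With the replicate block the count of genes whose genotype difference differed between sorts went from 19 to 8, and the calls lost were Hk1, Gpi1, Pfkl, Pfkm, Bpgm, Ldha, Pgm2, G6pdx, Pgls, Rpe and Taldo1. Same-numbered Gata1s R1/2 libraries of the 2 days had correlated deviations of 0.173, -0.094 and 0.208, but libraries of different days cannot share an embryo. Same-numbered R1/2 and R3 libraries of a genotype and day had correlations of -0.17 to 0.32. Numbers were not taken as pairs. The labels do not say that neighbouring MS names, R1/2 and R3 of the same genotype and day, share an embryo. The 6 such pairs had correlations of -0.12 to 0.32, with a consensus of -0.057. Treating them as correlated pairs, an alternative chosen after seeing the data, ended no call of the 34 genes and left 19 between sorts. So small a consensus changes the fit little.

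Upper-quartile scaling moved the share of higher among all calls from 39.7 to 61.3% in E12.5 R3 by genotype (54.4% under quantile normalisation), from 43.5 to 55.5% in the mean, from 40.6 to 57.4% (52.8%) for genotype by sort and from 58.5 to 43.9% (43.7%) for genotype by day. For R3 against R1/2 it moved it from 47.8 to 36.2% and 47.5 to 34.5% in wild type at E12.5 and E14.5 and from 47.4 to 35.9% in Gata1s E14.5, and for day in R3 from 52.0 to 31.6% (39.0%) in wild type and 49.1 to 32.6% in Gata1s. It also moved the median of all genes, to 0.15 in E12.5 R3 by genotype, to -0.34, -0.52, -0.16 and -0.50 for R3 against R1/2 (wild type, then Gata1s, by day), to -0.15 and -0.33 for day in R3 and to -0.13 for genotype by day.

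Signs turned under these scalings, and the cause was not tested. Under quantile normalisation, R3 minus R1/2 became -0.36 (Hk1), -0.36 (Pfkm) and -0.60 (Tkt) in wild type E12.5, and -0.63 (Hk1), -0.56 (Pfkl), -1.41 (Gapdh), -0.31 (Pklr) and -0.97 (Tkt) in wild type E14.5. In Gata1s it became -0.0038 (G6pdx) at E12.5, and -0.84 (Hk1), -0.79 (Pfkl), -0.86 (Aldoa), -0.83 (Gapdh), -1.01 (Pkm), -0.10 (Pklr) and -0.94 (Tkt) at E14.5. Day in R3 became -0.21 (Hk1), -0.40 (Gapdh) and -0.31 (Tkt) in wild type, and -0.26 (Hk1), -0.39 (Aldoa), -0.070 (Gapdh) and -0.35 (Tkt) in Gata1s. The genotype difference in E12.5 R3 became 0.25 (Pfkl) and 0.058 (Tkt), and its change by day -0.047 (Tkt). Under upper-quartile scaling, R3 minus R1/2 at E14.5 became -0.083 (Pfkl), -0.41 (Gapdh), -0.35 (Rpe) and -0.14 (Tkt) in wild type, and -0.088 (Hk1), -0.30 (Pfkl) and -0.12 (Tkt) in Gata1s.

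All Gata1s R3 libraries are MS, so prefix and genotype are partly confounded there. Groups hold 2 to 4 libraries, and values near 10 normalised counts rest on few reads.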
